A study of Mus musculus with 24 samples.

Results

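The genes of mitosis and chromosome segregation were followed in C2C12 cells with and without an shRNA against the RNA helicase p68. The set was named by function, though with earlier results of these data known, and comprised 55 genes: mitotic kinases, the spindle checkpoint, kinetochore proteins, spindle motors, condensin and the cytokinesis machinery. All probe sets annotated with 1 of these symbols were taken, which gave 92 of 22626 probe sets (50 of 12393 named genes) on the MA array design and 32 of 22511 probe sets (21 of 9607 genes) on the MB design. Of the 55 genes, 54 were on either design and 17 on both. Cdca8, Espl1, Sgo2a and Spc24 were on the MB design only, and Ccnb1, which encodes the cyclin partner of Cdk1, was not analysed here.

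C2C12 is a line of mouse myoblasts, which stop dividing and form myotubes once serum is lowered. Each design held 12 arrays in 4 groups of 3. These were differentiation medium (DM) with the p68 shRNA in pSuperR, DM with the empty pSuperR vector, growth medium (GM) with the p68 shRNA, and GM with the empty vector. The stated aim was to study muscle differentiation under interference with p68 (gene Ddx5) and p72 (gene Ddx17), and the groups used here carried an shRNA against p68 alone. All 4 groups came from transduced cells of the 1 line, with no untransduced cells among them, and the sources used here give neither the time in DM, nor the number of shRNA sequences, nor the clonality of the cells. RNA was from whole cultures, so fewer dividing cells and less messenger RNA per cell cannot be told apart.

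In a dividing cell, the kinase Cdk1 with its cyclins starts mitosis, condensin folds the chromosomes, and kinetochores built on the centromere attach them to the spindle. The spindle checkpoint holds back the anaphase promoting complex until all chromosomes are attached. Cdc20 then activates that complex, separase is freed to cut cohesin, the sister chromatids part, and the cytokinesis machinery divides the cell. The messenger RNAs of this machinery peak late in the cell cycle. In myoblasts they are known to be switched off as the cells leave the cycle to form myotubes. Their promoters are known for a cell cycle homology region (CHR) paired with CCAAT boxes. The DREAM and MuvB complexes act through the CHR.

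Promoter windows of the members were searched for these letters in the RefSeq table of the mouse build GRCm38.p6, each window running from 250 bases before to 50 bases after an annotated start. The CHR was searched as TTTGAA or TTCGAA and the CCAAT box as CCAAT, both on either strand, so that TTCAAA and ATTGG also count. An E2F site was also searched as TTTGGCGC, TTTCGCGC, TTTCCCGC or TTTGCCGC on either strand. The 6 windows below are those of the members with the largest fall on the MA arrays in DM in vector cells, among members with a single window and a CHR or CCAAT match. Capitals mark CHR and CCAAT matches.
Kif2c, chr4:117178723-117179022, minus strand: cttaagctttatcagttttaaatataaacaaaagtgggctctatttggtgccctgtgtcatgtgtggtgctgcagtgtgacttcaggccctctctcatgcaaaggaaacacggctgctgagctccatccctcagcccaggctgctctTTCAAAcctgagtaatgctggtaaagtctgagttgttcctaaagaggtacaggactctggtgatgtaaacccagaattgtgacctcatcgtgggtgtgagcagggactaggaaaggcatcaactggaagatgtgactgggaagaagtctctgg
Cdc20, chr4:118437294-118437593, minus strand: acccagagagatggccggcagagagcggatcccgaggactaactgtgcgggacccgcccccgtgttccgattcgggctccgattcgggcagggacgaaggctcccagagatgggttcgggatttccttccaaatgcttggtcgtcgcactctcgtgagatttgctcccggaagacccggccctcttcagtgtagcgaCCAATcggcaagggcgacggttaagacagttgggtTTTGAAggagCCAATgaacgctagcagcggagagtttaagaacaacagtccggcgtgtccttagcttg
Plk1, chr7:122159185-122159484, plus strand: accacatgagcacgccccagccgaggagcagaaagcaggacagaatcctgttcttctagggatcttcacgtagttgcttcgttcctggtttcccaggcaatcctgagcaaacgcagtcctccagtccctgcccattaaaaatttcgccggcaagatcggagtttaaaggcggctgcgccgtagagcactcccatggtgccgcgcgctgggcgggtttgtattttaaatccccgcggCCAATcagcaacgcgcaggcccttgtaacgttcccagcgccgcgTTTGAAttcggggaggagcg
Cdca5, chr19:6084847-6085146, plus strand: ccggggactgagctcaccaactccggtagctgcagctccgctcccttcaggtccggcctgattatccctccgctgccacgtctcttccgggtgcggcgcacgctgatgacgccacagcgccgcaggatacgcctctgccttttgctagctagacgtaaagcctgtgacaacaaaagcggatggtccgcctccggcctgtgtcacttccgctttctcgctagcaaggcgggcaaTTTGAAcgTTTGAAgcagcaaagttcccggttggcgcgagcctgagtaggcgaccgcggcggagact
Ube2c, chr2:164769679-164769978, plus strand: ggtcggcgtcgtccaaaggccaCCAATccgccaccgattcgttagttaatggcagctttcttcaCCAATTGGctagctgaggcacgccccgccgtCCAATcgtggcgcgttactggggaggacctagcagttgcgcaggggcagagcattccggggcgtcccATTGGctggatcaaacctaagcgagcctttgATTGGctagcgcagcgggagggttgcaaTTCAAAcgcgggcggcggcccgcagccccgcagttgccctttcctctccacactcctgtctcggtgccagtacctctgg
Bub1b, chr2:118597961-118598260, plus strand: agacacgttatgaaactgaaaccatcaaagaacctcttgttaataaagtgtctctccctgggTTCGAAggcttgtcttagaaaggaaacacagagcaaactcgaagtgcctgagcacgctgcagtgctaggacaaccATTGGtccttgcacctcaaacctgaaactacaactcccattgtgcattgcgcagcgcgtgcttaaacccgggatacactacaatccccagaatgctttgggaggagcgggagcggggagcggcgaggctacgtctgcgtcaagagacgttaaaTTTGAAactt

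In Cdc20, the TTTGAA lay at position -18 from the start, between CCAAT boxes at -53 and -8. Plk1 had its CCAAT at -14 and its TTTGAA at 30. Cdca5 held 2 TTTGAA, at -17 and -9, and no CCAAT. Ube2c held 6 CCAAT matches, of which CCAAT at -186 and ATTGG at -183 share letters, and a TTCAAA at -29. Bub1b had a TTCGAA at -188, an ATTGG at -113 and a TTTGAA at 40. In Kif2c the only match was a TTCAAA at -103.

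RefSeq windows were found for 46 members (50 windows). A CHR stood in 74.0% of these windows (37 of 50), in 17.1% of the 35 windows of a DNA replication list, and in 19.2% of all 32851 windows. CCAAT stood in 78.0% of the members' windows, in 21 of the 35 replication windows and in 37.4% of all windows. Both motifs together stood in 66.0% of the members' windows, in 14.3% of the replication windows and in 7.5% of all. Within 50 bases of the start, a CHR was found in 66.0% of the members' windows, 5.7% of the replication windows and 5.3% of all. The E2F letters stood in 6.0% of the members' windows, in 37.1% of the replication windows and in 2.3% of all. Birc5, Mad2l1, Melk, Ncaph, Nuf2, Nusap1 and Pttg1 had neither CHR nor CCAAT in their windows. A match is a description of the letters and not a measured binding site, and no binding data were used here.

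Ddx5, the target of the shRNA, changed by -0.68 ± 0.15 (adjusted p = 0.00677) with the shRNA in DM and by -0.31 ± 0.15 (adjusted p = 0.287) in GM, where it did not pass. The MA arrays of a group correlated at 0.951 to 0.983 across probe sets and the MB arrays at 0.825 to 0.886, DM vector replicate 3 (MA) and DM vector replicate 2 (MB) being the lowest. The 6 myotube markers summed to signals of 22820 to 26060 in DM with the shRNA and 30500 to 45490 in DM with the vector, against 217.5 to 298 in GM with the shRNA and 333.2 to 393.6 in GM with the vector. Of the 4 macrophage, 4 adipocyte and 3 endothelial markers, 2 to 3, 3 to 4 and 2 had a mean under 30 in each group, and no list summed to more than 199.9 in any array. Cdkn1a, which encodes the inhibitor p21 that stops cycling cells, averaged 5933 in DM with the shRNA and 6879 in DM with the vector, against 1027 in GM with the shRNA and 1443 in GM with the vector. The difference in Cdkn1a between shRNA and vector did not pass in DM (-0.18 ± 0.16, adjusted p = 0.487) or in GM (-0.49 ± 0.16, adjusted p = 0.0796). The log2 ratio of 3' to 5' control probes averaged -0.013 in DM with the shRNA and -0.02 in DM with the vector, against 0.027 in GM with the shRNA and 0.073 in GM with the vector (MA arrays).

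The first comparison asked how the members changed with the medium. Almost the whole mitotic set was lower in DM than in GM, and less so in cells with the p68 shRNA. Of 49 members tested on the MA design, 36 fell in shRNA cells and 48 fell in vector cells, and none rose in either (limma, adjusted p under 0.05; 0 rose at an unadjusted p under 0.05). Cdc25c and Ndc80 reached the signal needed for testing (30 in 3 arrays) only through GM arrays. Without these 2, 35 of 47 members fell in shRNA cells and 46 of 47 in vector cells. Over all 14367 probe sets tested, 17.5% fell and 16.3% rose in shRNA cells, and 25.4% fell and 23.9% rose in vector cells. The members' median log2 change was -0.94 in shRNA cells and -2.12 in vector cells, with medians over all probe sets of -0.003 and 0.008. In each construct Kif2c, a kinesin that takes microtubules apart at kinetochores, fell furthest, with log2 changes of -2.07 ± 0.13 in shRNA cells and -3.99 ± 0.13 in vector cells. This rank of Kif2c rests on its _x_at probe set (a name given to sets with probes shared with other transcripts), and its other tested probe sets changed by -2.37 and -0.25 in vector cells, the -0.25 not passing (adjusted p = 0.242). Ncapg of condensin was the 1 tested member that did not pass in vector cells, at -0.56 ± 0.38 (adjusted p = 0.237). In shRNA cells the falls of Aurkb, Hmmr, Mad2l1, Nek2, Nuf2, Top2a and Tpx2 passed with all arrays and not without single ones: Hmmr (not passing without DM shRNA replicate 2 or 3 or GM shRNA replicate 2 or 3 or 4, adjusted p = 0.051 to 0.151), Mad2l1 (not passing without DM shRNA replicate 3 or GM shRNA replicate 2 or 4, adjusted p = 0.0656 to 0.118), Nek2 (not passing without DM shRNA replicate 2 or 3 or GM shRNA replicate 3 or 4, adjusted p = 0.0785 to 0.118), Nuf2 (not passing without DM shRNA replicate 2, adjusted p = 0.0519) and Tpx2 (not passing without DM shRNA replicate 3 or GM shRNA replicate 2 or 4, adjusted p = 0.0997 to 0.101), with Aurkb and Top2a given below.

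Put as the share of the GM signal that was left in DM, the median member kept 50.6% in shRNA cells and 19.2% in vector cells. In shRNA cells the range ran from 21.4% (Kif2c) to 131.7% (Smc4, whose dimmer tested probe set is given below). In vector cells it ran from 4.10% (Kif2c, at the same _x_at probe set) to 68.7% (Ncapg). A share under 25% was left for 1 member in shRNA cells and 33 members in vector cells. In vector cells, 48 members had every DM array below every GM array, where 28.0% of all probe sets did. In shRNA cells this held for 36 members, against 25.6% of all probe sets. In DM with the vector, 11 members averaged a signal under 30, the level of the filter, so that their fall is understated on the log2(signal + 15) scale used throughout.

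**Figure D1:**
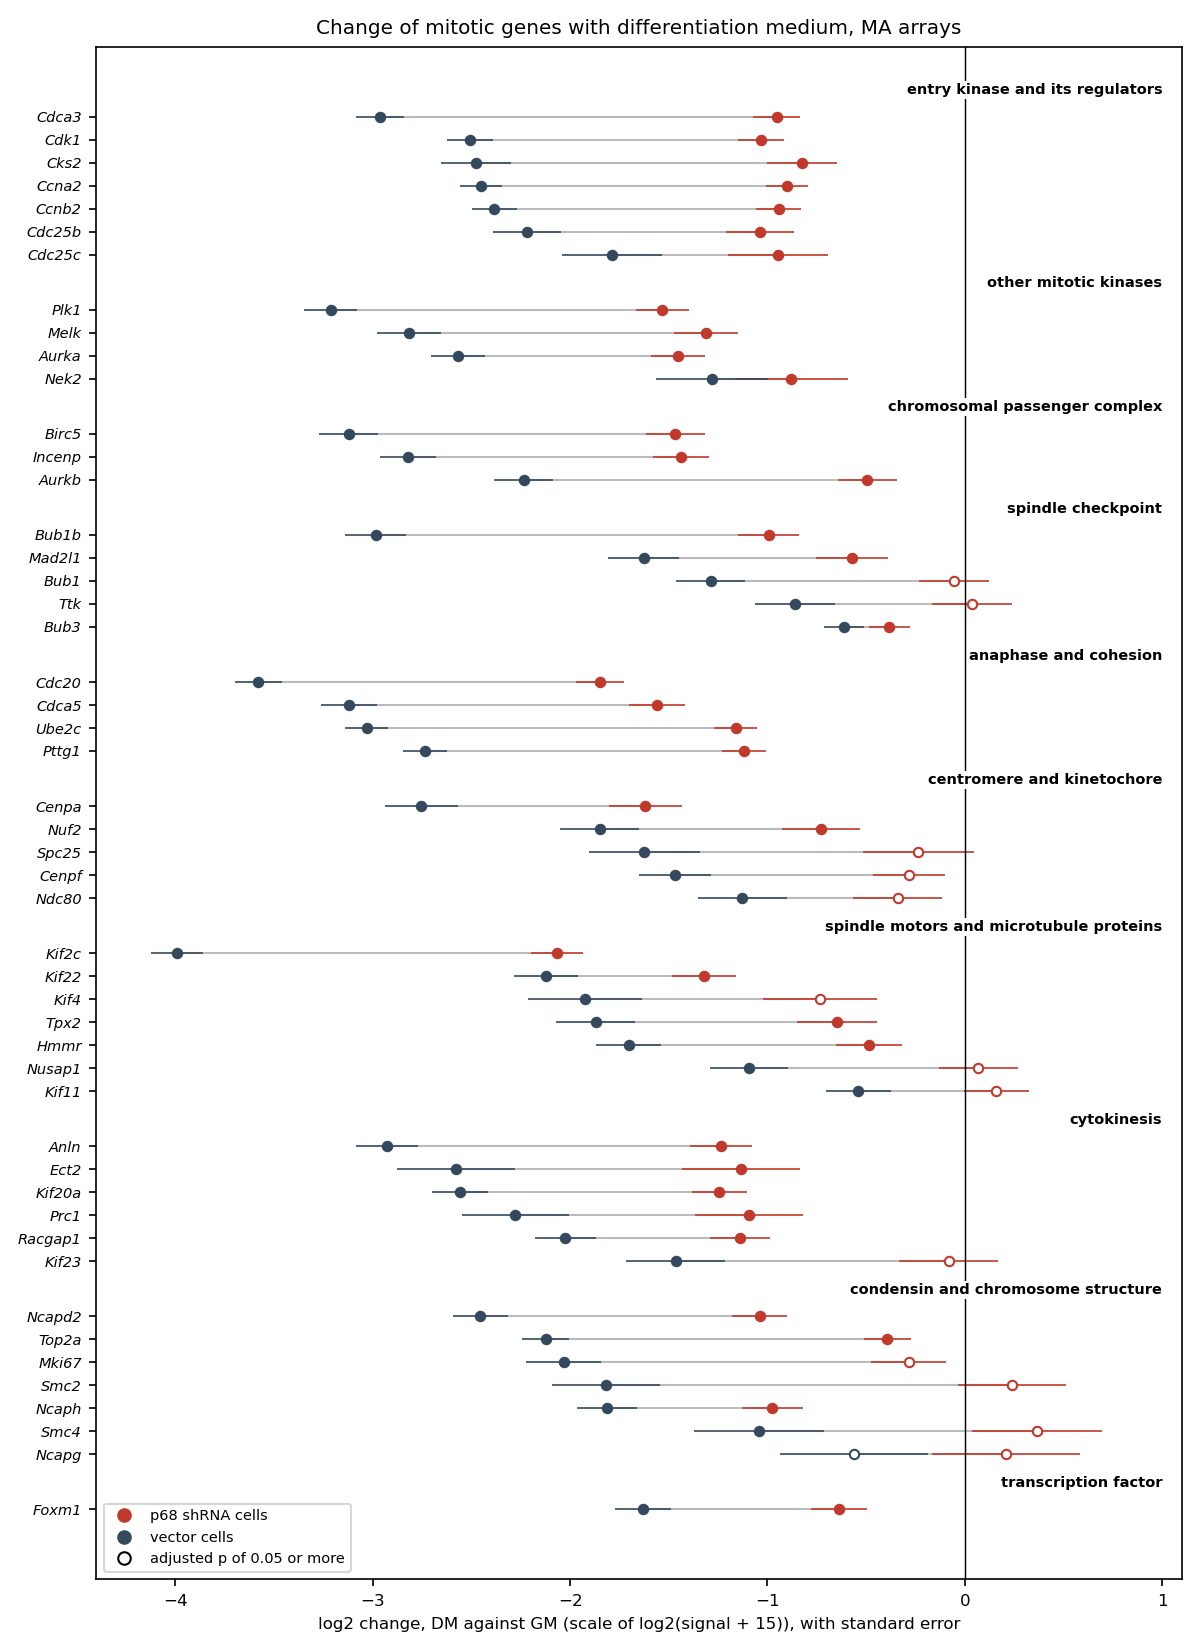
Log2 change of each tested member from the MA arrays for DM against GM (horizontal axis, on the log2(signal + 15) scale, bars giving the standard error), in p68 shRNA cells (red) and vector cells (dark blue), grouped by role; open circles have an adjusted p of 0.05 or more. Every red point lies to the right of its blue point, from Kif2c (-2.07 and -3.99) to Smc4 (0.36 and -1.04), with Bub3 the closest pair (-0.38 and -0.61).

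The second comparison set the shRNA against the vector within each medium. In DM, 43 of the 49 members were higher with the shRNA and none was lower (0 also at an unadjusted p under 0.05 in limma), while 10.7% of all probe sets were higher and 6.24% lower. The median log2 change of the members was 1.17, against 0.052 over all probe sets, and the values ran from 0.02 (Bub3) to 1.78 (Cdca3, an adaptor that helps degrade the mitosis inhibitor Wee1). At the other tested probe set of Cdca3, which was dimmer, the change was 0.36 (adjusted p = 0.247). In 46 members all shRNA arrays lay above all vector arrays in DM, as 18.4% of all probe sets did. Bub3, Cdc25c, Ncapg, Ndc80, Nek2 and Ttk did not pass, with adjusted p between 0.0529 (Cdc25c) and 0.922 (Bub3). Of these, Cdc25c (passing without DM vector replicate 3 or GM shRNA replicate 3, adjusted p = 0.0204 to 0.0451), Ncapg (passing without DM vector replicate 3, adjusted p = 0.0318) and Ndc80 (passing without DM shRNA replicate 3 or DM vector replicate 2, adjusted p = 0.0332 to 0.0475) passed when single arrays were left out, as did Nek2 and Ttk, given below. The summed myotube markers given above were lower in the same shRNA arrays in DM than in the vector arrays, without overlap, and their part in this result was not tested.

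In GM the differences between shRNA and vector were small. Only Plk1 (-0.49 ± 0.13, adjusted p = 0.0394) and Top2a (-0.42 ± 0.12, adjusted p = 0.048) passed, both lower with the shRNA. Of all probe sets, 2.57% passed as lower and 3.99% as higher. At an unadjusted p under 0.05 in limma, 13 members were lower, and the share of all probe sets at that level was not counted. The count rested on single arrays: 0 members passed without any 1 of the 6 GM arrays or without DM shRNA replicate 2, 1 without DM shRNA replicate 3 or DM vector replicate 2, and 5 without DM vector replicate 1 or 3. The median log2 change was -0.20 over the members and 0.039 over all probe sets, with 44 members below 0. All shRNA arrays lay below all vector arrays in 20 members, as in 12.5% of all probe sets. No member passed as higher with the shRNA in both media, and the 5 members above 0 in GM (Kif22, Mad2l1, Nek2, Nuf2 and Prc1) did not pass there.

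The difference between the media was then tested itself, as the interaction of medium and shRNA. It was positive and passed in 39 of the 49 members and was negative in none that passed, while 5.48% of all probe sets had a positive and 4.48% a negative interaction that passed. The median interaction was 1.38, against 0.010 over all probe sets, and ran from 0.23 (Bub3) to 2.05 (Smc2, an ATPase of condensin). Of the 39, the interactions of Ect2, Kif22, Kif23, Mad2l1, Ncaph, Nuf2 and Spc25 did not pass when single arrays were left out: Ect2 (not passing without DM shRNA replicate 1 or 2 or DM vector replicate 2 or GM shRNA replicate 2 or 3 or 4 or GM vector replicate 1 or 3 or 4, adjusted p = 0.0611 to 0.104), Mad2l1 (not passing without DM shRNA replicate 2, adjusted p = 0.0507), Ncaph (not passing without DM shRNA replicate 2 or DM vector replicate 2 or GM shRNA replicate 2 or GM vector replicate 1 or 4, adjusted p = 0.0513 to 0.0718) and Nuf2 (not passing without DM shRNA replicate 1 or DM vector replicate 2 or GM shRNA replicate 2 or GM vector replicate 1 or 4, adjusted p = 0.0506 to 0.0526), with the others given below. Prc1 gained it (passing without DM shRNA replicate 3 or DM vector replicate 2, adjusted p = 0.0105 to 0.0277). This contrast uses the same 12 arrays as the comparisons above, so its values are not a separate measurement. Averaged over the 49 members, the log2 signal was 7.53, 7.41 and 7.39 in DM with the shRNA and 6.39, 6.37 and 6.21 in DM with the vector, against 8.25, 8.20 and 8.30 in GM with the shRNA and 8.45, 8.42 and 8.47 in GM with the vector. The 4 groups did not overlap, and the shRNA arrays in DM lay between the vector arrays in DM and all GM arrays. For 43 of the 49 members the mean of the shRNA arrays in DM lay between those of the vector arrays in DM and the shRNA arrays in GM. The share of all probe sets with that order was not counted.

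**Figure D2:**
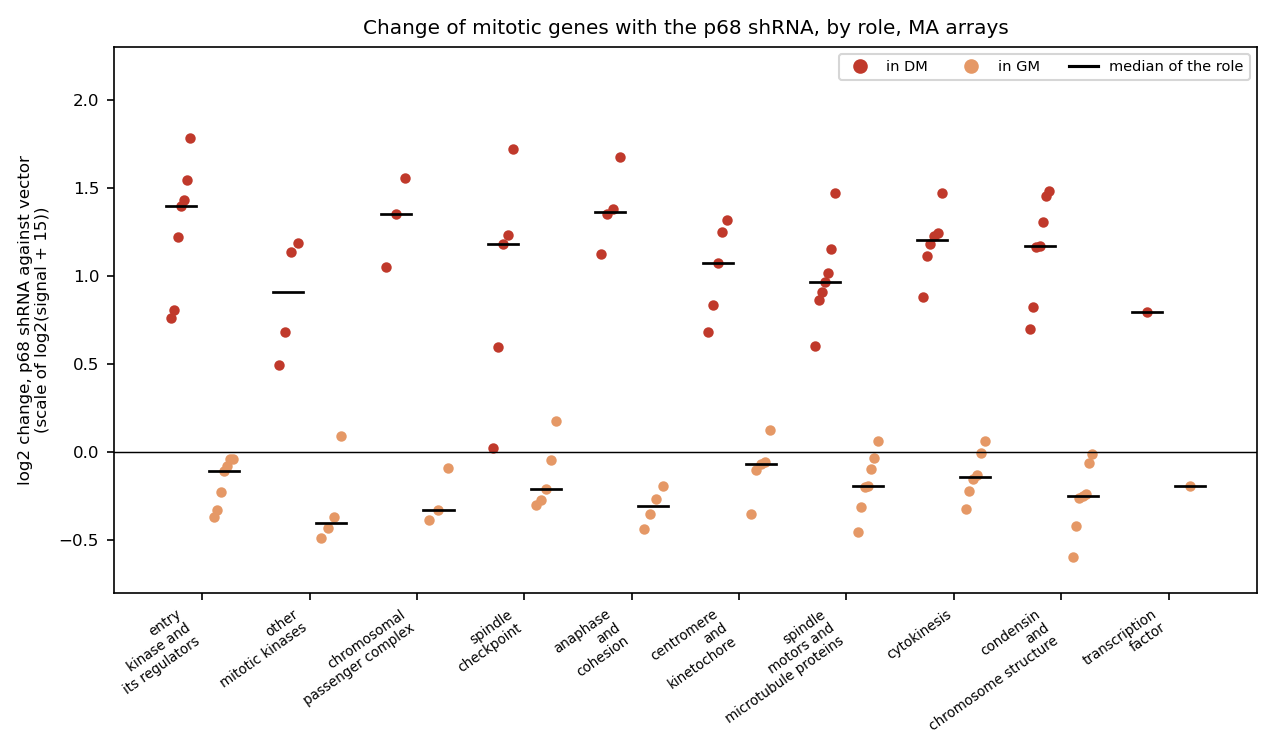
Log2 change for p68 shRNA against vector in each tested member from the MA arrays (vertical axis, on the log2(signal + 15) scale), by role, in DM (red) and in GM (orange); black lines are medians of a role. All red points lie above 0, from 0.02 (Bub3) to 1.78 (Cdca3), and 44 of the 49 orange points lie below 0.

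The members are described next by role, with the signals of the 3 arrays of each group in the order of their replicate numbers. The 2 members of each role with the highest mean signal are given in full.

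Entry into mitosis was represented by Cdk1, its cyclins and activators. All 7 tested members fell in both constructs, with a median log2 change of -0.95 in shRNA cells and -2.45 in vector cells, and 6 of them were higher with the shRNA in DM (median 1.40). Cdk1, the kinase that starts mitosis, had signals of 656, 647 and 617 in DM with the shRNA and 220.1, 268 and 199 in DM with the vector, against 1306, 1469 and 1213 in GM with the shRNA and 1344, 1340 and 1404 in GM with the vector. Every DM array lay below every GM array, and in DM the shRNA arrays lay above the vector arrays without overlap, while in GM the constructs overlapped. Its log2 change with the shRNA was 1.43 ± 0.12 (adjusted p = 2.13e-06) in DM and -0.04 ± 0.12 (adjusted p = 0.898) in GM. Cdk1 kept 48.2% of its GM signal in shRNA cells and 16.8% in vector cells.

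Cks2, a small subunit bound to Cdk1, had 724, 645 and 581 in DM with the shRNA and 222, 278 and 154 in DM with the vector, against 937, 1293 and 1279 in GM with the shRNA and 1265, 1316 and 1173 in GM with the vector. Its groups were ordered as those of Cdk1, again with overlap in GM. The change with the shRNA was 1.54 ± 0.18 (adjusted p = 3.62e-05) in DM and -0.11 ± 0.18 (adjusted p = 0.805) in GM. Cyclin genes did likewise: Ccnb2 was higher with the shRNA in DM by 1.40 ± 0.11 and Ccna2 by 1.22 ± 0.11. Cdc25b, a phosphatase that activates Cdk1, changed by 0.81 ± 0.17 (adjusted p = 0.00449) in DM, and its relative Cdc25c, whose mean signal was under 30 in both DM groups, by 0.76 ± 0.25 (adjusted p = 0.0529).

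The other mitotic kinases, Plk1, Aurka, Nek2 and Melk, all fell in both constructs (median -1.38 in shRNA cells and -2.69 in vector cells). Plk1, which acts in centrosome maturation, chromosome attachment and cytokinesis, had signals of 195, 225 and 236 in DM with the shRNA and 69.3, 91.3 and 104 in DM with the vector, against 703, 650.2 and 629 in GM with the shRNA and 907, 1006 and 892 in GM with the vector. No 2 of the 4 groups overlapped: the order was DM vector, DM shRNA, GM shRNA and GM vector, low to high. Its interaction was 1.68 ± 0.19 (adjusted p = 7.70e-05).

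Aurka, the kinase of the spindle poles, had 151, 160.5 and 186 in DM with the shRNA and 77.3, 104 and 114 in DM with the vector, against 536, 463 and 439.8 in GM with the shRNA and 661, 659 and 634 in GM with the vector. The same order without overlap was seen as for Plk1. The change with the shRNA was 0.68 ± 0.14 (adjusted p = 0.00311) in DM and -0.43 ± 0.14 (adjusted p = 0.0764) in GM. Melk, a kinase found in cycling cells, was higher with the shRNA in DM by 1.13 ± 0.16. Nek2, a centrosomal kinase, fell in both constructs, with log2 changes of -0.88 ± 0.28 in shRNA cells and -1.28 ± 0.28 in vector cells, and its difference of 0.49 ± 0.28 (adjusted p = 0.277) between shRNA and vector in DM did not pass (passing without DM vector replicate 3, adjusted p = 0.0392). On the MB arrays Nek2 had 3 tested probe sets, and at the brightest the corresponding difference was 0.95 ± 0.21 (adjusted p = 0.0331). The other MB probe sets of Nek2 did not pass, at 0.38 (adjusted p = 0.794) and 0.27 (adjusted p = 0.944).

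The chromosomal passenger complex, which corrects wrong attachments and later guides cytokinesis, was measured through Birc5, Incenp and Aurkb. All 3 fell in both constructs (median -1.44 in shRNA cells and -2.82 in vector cells) and all 3 were higher with the shRNA in DM (median 1.35). Birc5, the survivin subunit, had signals of 399, 366 and 344 in DM with the shRNA and 158, 97.7 and 99.2 in DM with the vector, against 934, 1128 and 1093 in GM with the shRNA and 1094, 1104 and 1166 in GM with the vector. The DM groups did not overlap each other or the GM groups, and in GM the constructs overlapped. It changed by 1.56 ± 0.15 (adjusted p = 7.25e-06) with the shRNA in DM.

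Incenp, the scaffold of the complex, had 198, 218 and 186 in DM with the shRNA and 95.6, 94.9 and 77.3 in DM with the vector, against 476, 639.9 and 599 in GM with the shRNA and 806, 755 and 608 in GM with the vector. Here too the DM groups stood apart and the GM groups overlapped. Its change with the shRNA in DM was 1.05 ± 0.14 (adjusted p = 0.000154). Aurkb, the kinase of the complex, changed with the medium by -0.49 ± 0.15 in shRNA cells (adjusted p = 0.0189; not passing without DM shRNA replicate 1 or 3 or GM shRNA replicate 2 or 4, adjusted p = 0.0557 to 0.089) and by -2.23 ± 0.15 (adjusted p = 1.50e-08) in vector cells. Its interaction was 1.74 ± 0.21 (adjusted p = 0.000153), the highest of the 3 at the probe sets given here. The other tested MA probe set of Aurkb had an interaction of 0.72 (adjusted p = 0.0941). The other tested MA probe sets of Incenp had 1.84 (adjusted p = 0.000723) and 0.63 (adjusted p = 0.118). Aurkb, Cdc20, Incenp, Kif22, Kif2c and Ncaph are given by probe sets whose names end in _x_at, which hold probes shared with other transcripts.

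Of the spindle checkpoint, all 5 tested members fell in vector cells, with a median of -1.29, and 3 of the 5 in shRNA cells, with a median of -0.38. Bub3, a checkpoint adaptor, had signals of 687, 794 and 720.1 in DM with the shRNA and 696, 707 and 763 in DM with the vector, against 953, 957 and 968 in GM with the shRNA and 1194, 1166 and 987 in GM with the vector. The constructs overlapped in DM, and within each construct all DM arrays lay below all GM arrays. Its difference between shRNA and vector in DM was 0.02 ± 0.10 (adjusted p = 0.922), and its fall with the medium was -0.38 ± 0.10 (adjusted p = 0.00968) in shRNA cells and -0.61 ± 0.10 (adjusted p = 0.000161) in vector cells. Bub3 was the member closest to no difference between the constructs in DM.

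Bub1b, which encodes the BubR1 checkpoint protein, had 213, 253 and 236 in DM with the shRNA and 59.5, 79.4 and 46.2 in DM with the vector, against 553, 473 and 422 in GM with the shRNA and 631, 539.5 and 580 in GM with the vector. In DM the lowest shRNA array lay well above the highest vector array, and in GM the constructs overlapped. It was higher with the shRNA in DM by 1.72 ± 0.15 (adjusted p = 4.82e-06), and its interaction was 1.99 ± 0.22 (adjusted p = 7.26e-05). A second probe set on the MB arrays had 780.3, 889 and 1127 in DM with the shRNA and 96.1, 63.4 and 162 in DM with the vector, against 2890, 2373 and 2274 in GM with the shRNA and 2746, 2889 and 2550 in GM with the vector. The groups stood in the same order there, with a change of 3.02 ± 0.23 (adjusted p = 2.81e-06) with the shRNA in DM and an interaction of 3.14 ± 0.33 (adjusted p = 0.000173). The other MB probe set of Bub1b had the opposite signs and passed in neither, at -0.945 with the shRNA in DM (adjusted p = 0.679) and -0.865 for the interaction (adjusted p = 0.876).

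The checkpoint kinase Bub1 was at 70.1, 52.1 and 50.5 in DM with the shRNA and 16.99, 20.5 and 13.1 in DM with the vector, against 65.2, 54.8 and 59.97 in GM with the shRNA and 62.8, 52.5 and 73.4 in GM with the vector. In shRNA cells its DM and GM arrays overlapped (-0.06 ± 0.17, adjusted p = 0.841), and in vector cells they did not (-1.29 ± 0.17, adjusted p = 2.35e-05). Its interaction was 1.23 ± 0.25 (adjusted p = 0.00576). Mad2l1, the Mad2 protein that binds Cdc20, was higher with the shRNA in DM by 1.23 ± 0.18 (adjusted p = 0.000321). Ttk (Mps1), the kinase that recruits the checkpoint, changed by 0.59 ± 0.20 (adjusted p = 0.0594) and did not pass with all arrays (passing without DM vector replicate 3, adjusted p = 0.0196).

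Members that act at anaphase had the lowest median change of all roles in vector cells, -3.08, and a median of -1.36 in shRNA cells, and all 4 were higher with the shRNA in DM (median 1.36). Cdc20, the activator of the anaphase promoting complex, had signals of 435, 519.5 and 433 in DM with the shRNA and 169.7, 156 and 180.1 in DM with the vector, against 1476, 1834 and 1809 in GM with the shRNA and 2337, 2252 and 1955 in GM with the vector. All 4 groups were apart, in the order seen for Plk1. Its log2 change with the medium was -1.85 ± 0.12 in shRNA cells and -3.58 ± 0.12 in vector cells, and its interaction was 1.73 ± 0.17 (adjusted p = 3.10e-05).

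Pttg1, the securin that holds separase inactive, had 1749, 2143 and 2056 in DM with the shRNA and 824, 814 and 670.4 in DM with the vector, against 4431, 4506 and 4004 in GM with the shRNA and 5123, 5368 and 5065 in GM with the vector. The groups did not overlap and had the order of Cdc20. The shRNA changed it by 1.35 ± 0.11 (adjusted p = 2.14e-06) in DM and -0.27 ± 0.11 (adjusted p = 0.179) in GM. Ube2c, the ubiquitin-conjugating enzyme of the complex, kept 43.7% of its GM signal in shRNA cells and 10.9% in vector cells, and was higher with the shRNA in DM by 1.67 ± 0.11 (adjusted p = 3.98e-07). Cdca5 (sororin), which protects cohesin until anaphase, was higher by 1.12 ± 0.14 (adjusted p = 8.49e-05).

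At the centromere and kinetochore, all 5 tested members fell in vector cells (median -1.62) and 2 of the 5 in shRNA cells (median -0.34). Cenpa, the histone variant that marks the centromere, had signals of 196, 222 and 158 in DM with the shRNA and 96.2, 98.7 and 58.4 in DM with the vector, against 498, 746 and 629 in GM with the shRNA and 699, 599.7 and 635 in GM with the vector. The DM groups were apart from each other and from GM, and the GM groups overlapped. Its log2 change with the medium was -1.62 ± 0.18 in shRNA cells and -2.75 ± 0.18 in vector cells, and its change with the shRNA in DM was 1.07 ± 0.18 (adjusted p = 0.00102).

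Cenpf, a large protein of the outer kinetochore, had 90.5, 75.9 and 85.9 in DM with the shRNA and 50.6, 44.6 and 28.9 in DM with the vector, against 110.5, 85.5 and 123 in GM with the shRNA and 136, 119 and 165 in GM with the vector. In shRNA cells DM and GM overlapped, and in vector cells all DM arrays lay below all GM arrays. The change with the medium was -0.28 ± 0.18 (adjusted p = 0.256) in shRNA cells and -1.47 ± 0.18 (adjusted p = 9.10e-06) in vector cells, with an interaction of 1.19 ± 0.26 (adjusted p = 0.0092). The other tested MA probe set of Cenpf did not pass in vector cells (-0.27, adjusted p = 0.323) or for the interaction (0.45, adjusted p = 0.41). With the shRNA in DM it changed by 0.25 (adjusted p = 0.477). Of the Ndc80 complex, which binds microtubules, Nuf2 changed with the shRNA in DM by 1.25 ± 0.20 (adjusted p = 0.000578), Spc25 by 1.32 ± 0.28 (adjusted p = 0.00455) and Ndc80 itself by 0.68 ± 0.23 (adjusted p = 0.0535). Ndc80 was dim throughout, with a mean of 29.3 ± 7.44 in DM with the shRNA and 13.1 ± 7.3 in DM with the vector (SD, n = 3 each).

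All 7 spindle motors and microtubule proteins fell in vector cells (median -1.87), 4 of them fell in shRNA cells (median -0.65), and all 7 were higher with the shRNA in DM (median 0.97). Kif2c had signals of 93.3, 99.97 and 106 in DM with the shRNA and 28.2, 29.5 and 21.9 in DM with the vector, against 440.4, 447 and 511 in GM with the shRNA and 622, 754 and 568 in GM with the vector. All 4 groups were apart, and the vector arrays in DM were near the low end of the scale, 3 of 3 being under 30. Its interaction was 1.93 ± 0.19 (adjusted p = 3.06e-05). The other tested probe sets of Kif2c had interactions of 0.965 (adjusted p = 0.00397) and 0.207 (adjusted p = 0.663). With the shRNA in DM they changed by 0.685 (adjusted p = 0.00198) and -0.061 (adjusted p = 0.855).

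Kif22, a motor that moves chromosome arms, had 277, 231 and 218 in DM with the shRNA and 130.4, 132 and 115 in DM with the vector, against 598, 552 and 740.4 in GM with the shRNA and 474, 754 and 597 in GM with the vector. Its DM groups were apart and its GM groups overlapped. The change with the shRNA in DM was 0.86 ± 0.16 (adjusted p = 0.00192), and its interaction was 0.80 ± 0.23 (adjusted p = 0.0395; not passing without DM shRNA replicate 1 or 2 or DM vector replicate 2 or GM shRNA replicate 2 or 3 or GM vector replicate 3 or 4, adjusted p = 0.0611 to 0.0975). Of its other probe sets, one that ends in _s_at had an interaction of 1.65 (adjusted p = 0.000177) and a difference of -0.65 with the shRNA in GM (adjusted p = 0.0157), where the probe set given here had 0.06 ± 0.16. Hmmr and Tpx2, proteins that assemble spindle microtubules, were higher with the shRNA in DM by 1.01 ± 0.17 and 0.91 ± 0.20, and the motor Kif4 by 1.15 ± 0.29. The other tested MA probe sets of Hmmr, which were dimmer, did not pass there (0.54, adjusted p = 0.076, and 0.34, adjusted p = 0.238). Nor did they pass for the interaction (0.49, adjusted p = 0.32, and 0.22, adjusted p = 0.673). Kif11, the motor that separates the spindle poles, fell least among the members that passed in vector cells, with a log2 change of -0.54 ± 0.16 (adjusted p = 0.0132; not passing without GM vector replicate 3, adjusted p = 0.0527). It was at 69.9, 48.7 and 61.5 in DM with the shRNA and 31.5, 35.2 and 35.8 in DM with the vector, without overlap, a change of 0.60 ± 0.16 (adjusted p = 0.0199; not passing without DM shRNA replicate 1 or 3 or DM vector replicate 1, adjusted p = 0.0515 to 0.0933).

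Cytokinesis members all fell in vector cells (6 of 6, median -2.42), 5 fell in shRNA cells (median -1.14) and 6 of 6 were higher with the shRNA in DM (median 1.20). Anln, the anillin scaffold of the contractile ring, had signals of 247, 199 and 183 in DM with the shRNA and 85.5, 65.9 and 49.5 in DM with the vector, against 489, 512 and 533 in GM with the shRNA and 635, 534 and 632 in GM with the vector. No groups overlapped, though the GM groups were separated by little. Its change with the shRNA was 1.47 ± 0.16 (adjusted p = 2.05e-05) in DM and -0.22 ± 0.16 (adjusted p = 0.482) in GM.

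Racgap1, a subunit of the centralspindlin complex, had 249, 249 and 268 in DM with the shRNA and 119.6, 104 and 182 in DM with the vector, against 635, 572 and 538 in GM with the shRNA and 590.5, 570.3 and 586 in GM with the vector. The GM groups overlapped and the DM groups did not. It was higher with the shRNA in DM by 0.88 ± 0.15 (adjusted p = 0.00113). Its partner motor Kif23 did not pass for the medium in shRNA cells (-0.08 ± 0.25, adjusted p = 0.835) and passed in vector cells (-1.47 ± 0.25, adjusted p = 0.000206). Kif20a, Prc1 and Ect2, which build the central spindle and call up the ring, were higher with the shRNA in DM by 1.18 ± 0.14, 1.25 ± 0.27 and 1.11 ± 0.30, the call of Ect2 resting on 1 array (not passing without DM shRNA replicate 1, adjusted p = 0.09).

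Condensin and chromosome structure had the smallest median change in shRNA cells of the roles with more than 1 member. In vector cells 6 of 7 members fell (median -1.82) and in shRNA cells 3 of 7 (median -0.29), and 6 were higher with the shRNA in DM (median 1.17). Top2a, the topoisomerase that untangles sister DNA, had signals of 419.7, 339 and 379.9 in DM with the shRNA and 159.8, 152 and 123 in DM with the vector, against 498, 507 and 498 in GM with the shRNA and 714, 625 and 697 in GM with the vector. All 4 groups were apart, and the shRNA arrays in DM lay nearer to those in GM than the vector arrays did. Its log2 change with the medium was -0.39 ± 0.12 in shRNA cells (adjusted p = 0.0196; not passing without DM shRNA replicate 2 or GM shRNA replicate 3, adjusted p = 0.0545 to 0.0938) and -2.12 ± 0.12 (adjusted p = 2.19e-09) in vector cells. The interaction was 1.73 ± 0.17 (adjusted p = 3.06e-05).

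Ncapd2, a regulatory subunit of condensin I, had 149, 158 and 201 in DM with the shRNA and 68.2, 57.9 and 74.7 in DM with the vector, against 413, 358 and 318 in GM with the shRNA and 436, 414 and 449.7 in GM with the vector. Again no groups overlapped, the GM groups narrowly. Its change with the shRNA in DM was 1.16 ± 0.14 (adjusted p = 4.98e-05). The condensin ATPase Smc2 was at 123, 95.4 and 75.4 in DM with the shRNA and 37.7, 33.6 and 11.1 in DM with the vector, against 82.1, 52.4 and 113 in GM with the shRNA and 119, 118 and 149 in GM with the vector. In shRNA cells its DM arrays overlapped the GM arrays, and its interaction of 2.05 ± 0.39 (adjusted p = 0.00397) had the highest value of the MA members. Smc4, its partner, had 228, 163 and 177 in DM with the shRNA and 121, 113 and 27.2 in DM with the vector, where replicate 3 of the vector group lay far below the other vector arrays. Its change with the shRNA in DM was 1.17 ± 0.33 (adjusted p = 0.0236; not passing without DM shRNA replicate 1 or 3, adjusted p = 0.0541 to 0.0932). The other tested MA probe set of Smc4, which was dimmer, changed by 0.225 there (adjusted p = 0.575). With the medium it changed by -0.213 in shRNA cells (adjusted p = 0.52) and -0.389 in vector cells (adjusted p = 0.182). Its interaction was 0.176 (adjusted p = 0.806).

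Ncapg had 58.5, 26.7 and 65.9 in DM with the shRNA and 4.28, 28.3 and 54.2 in DM with the vector, against 44.6, 26.1 and 51.0 in GM with the shRNA and 46.9, 42.5 and 37.0 in GM with the vector. Every pair of groups overlapped, and DM vector replicate 1 lay lowest of all arrays. Its exact permutation p for DM against GM in vector cells was 0.5 (two-sided, 3 against 3 arrays), and in limma its call changed with 1 array (passing without DM vector replicate 3, adjusted p = 0.0253). Mki67, the Ki-67 protein that coats mitotic chromosomes and serves as a proliferation marker, was at 202, 118 and 159 in DM with the shRNA and 61.3, 44.2 and 36.3 in DM with the vector, against 195, 202 and 185 in GM with the shRNA and 274, 198 and 242 in GM with the vector. In shRNA cells DM and GM overlapped and in vector cells they did not. It was higher with the shRNA in DM by 1.48 ± 0.19 (adjusted p = 9.00e-05). For the other 19 members given in full, the exact test of DM against GM in vector cells gave 0.1, the smallest value that 3 against 3 arrays allow.

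Foxm1, a transcription factor that activates mitotic genes, fell in both constructs, by less than the members' median at the probe set given here. It had signals of 141, 126 and 141 in DM with the shRNA and 72.0, 75.1 and 68.5 in DM with the vector, against 258, 177 and 232 in GM with the shRNA and 241, 291 and 234 in GM with the vector. The DM groups were apart from each other and from GM, and the GM groups overlapped. The log2 change with the medium was -0.64 ± 0.14 (adjusted p = 0.00301) in shRNA cells and -1.63 ± 0.14 (adjusted p = 2.65e-07) in vector cells, and the change with the shRNA in DM was 0.80 ± 0.14 (adjusted p = 0.00139). Another probe set, dim in DM, fell by more than the members' median, -1.70 in shRNA cells and -2.88 in vector cells. There the shRNA changed it by 0.33 (adjusted p = 0.356) in DM. In GM the change was -0.85 (adjusted p = 0.0338), without overlap. The remaining tested probe set fell by -0.84 in shRNA cells and -1.95 in vector cells, and was higher with the shRNA in DM by 0.88 (adjusted p = 0.00254).

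**Figure D3:**
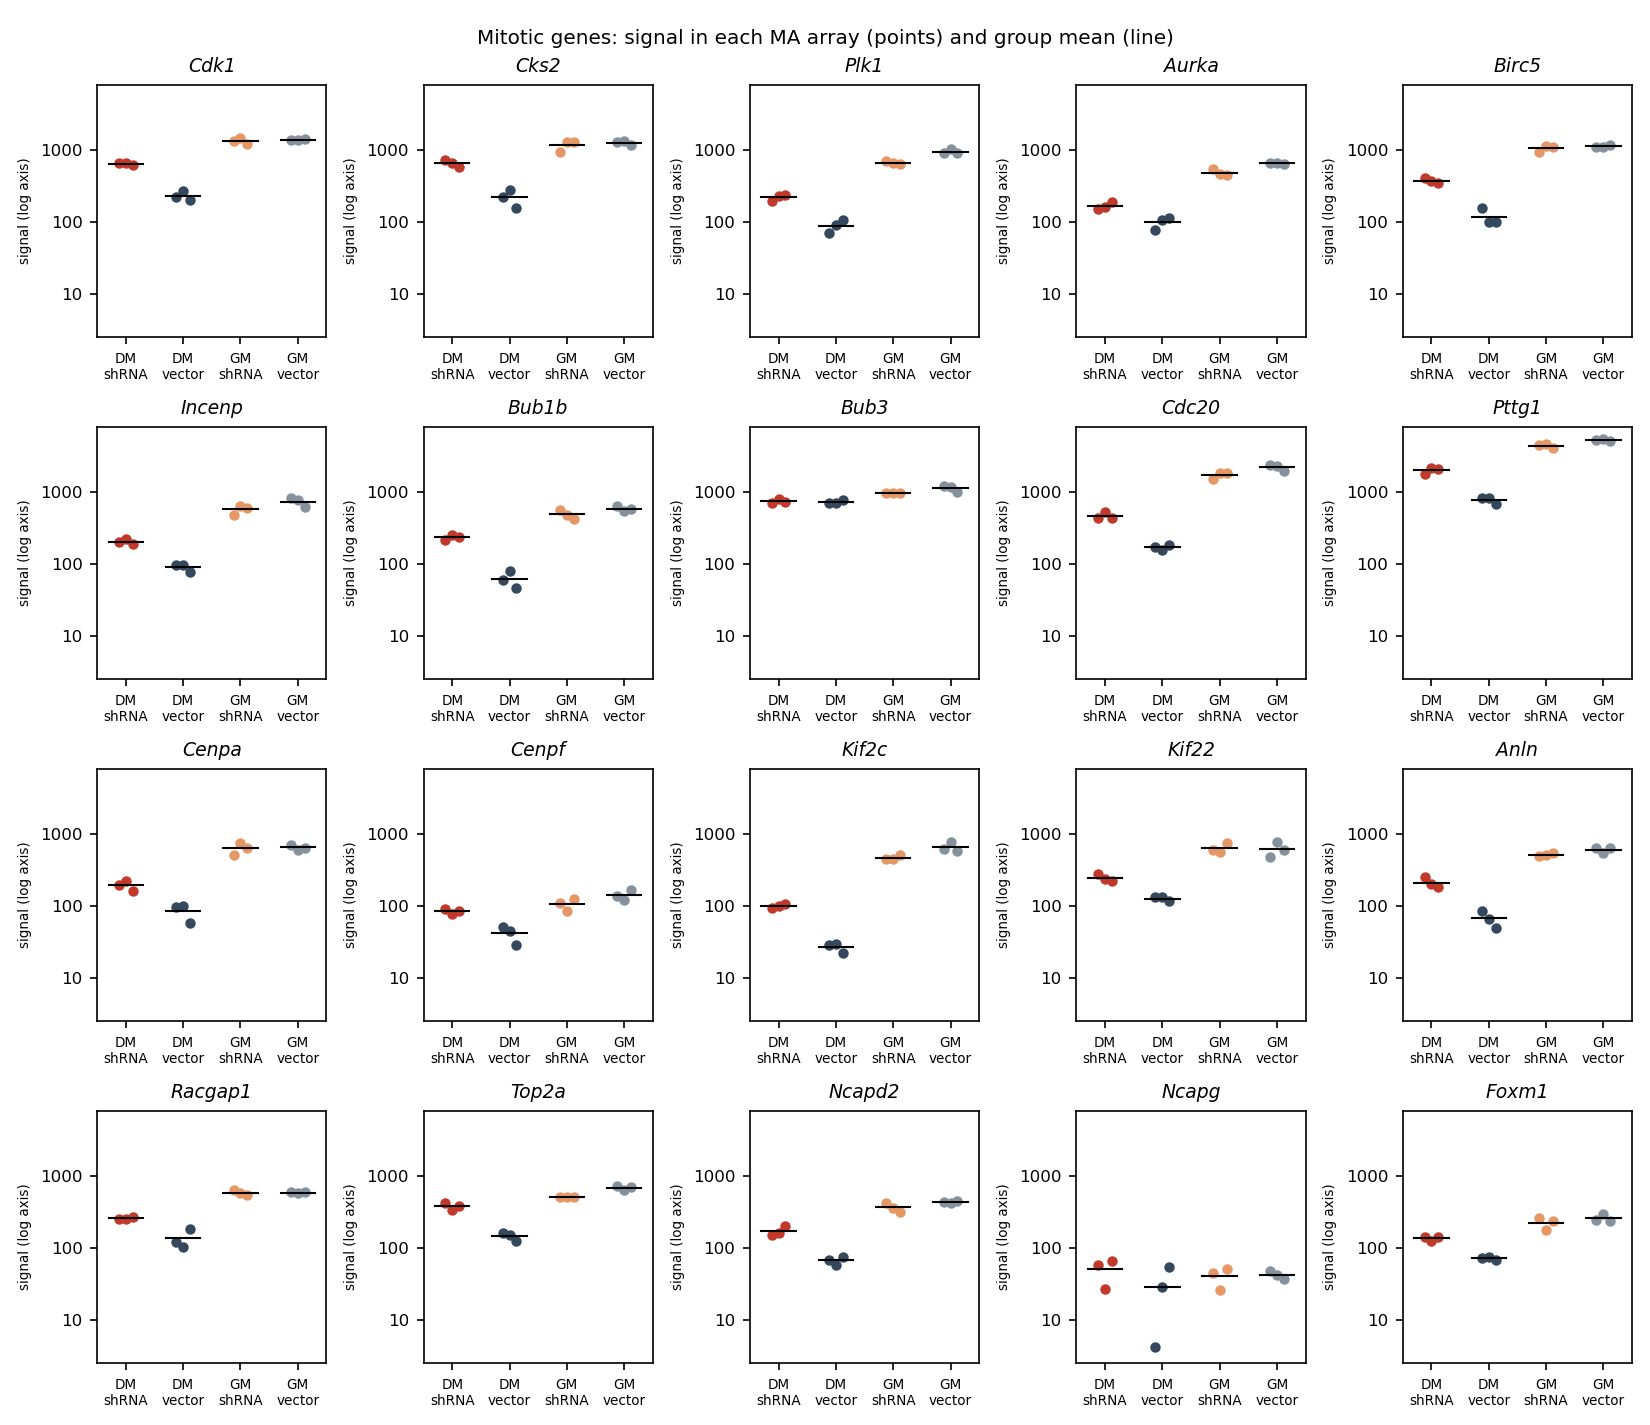
Signal of each MA array (points, log axis) and group mean (line) for the 20 members given in full, with the groups DM shRNA, DM vector, GM shRNA and GM vector from left to right. In all panels but those of Bub3 and Ncapg, the 3 DM shRNA arrays stand above the 3 DM vector arrays, as for Cdk1 (617 to 656 against 199 to 268).

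In 12 members the fall in DM passed in vector cells and not in shRNA cells: Bub1, Cenpf, Kif11, Kif23, Kif4, Mki67, Ndc80, Nusap1, Smc2, Smc4, Spc25 and Ttk. How many of all probe sets had this pattern was not counted, and fewer of them fell in shRNA cells (17.5%) than in vector cells (25.4%). The difference between the constructs was tested by the interaction, which passed in 7 of them, between 1.16 (Nusap1) and 2.05 (Smc2), and did not pass in Kif11 (0.70 ± 0.23, adjusted p = 0.0739), Kif4 (1.19 ± 0.41, adjusted p = 0.0833), Ndc80 (0.79 ± 0.32, adjusted p = 0.149), Smc4 (1.41 ± 0.47, adjusted p = 0.0727) and Ttk (0.90 ± 0.29, adjusted p = 0.0648). This split rested on single arrays in part. The interaction was lost for Spc25 (not passing without DM shRNA replicate 1 or 2 or 3 or GM shRNA replicate 2 or 3 or 4 or GM vector replicate 1 or 4, adjusted p = 0.0563 to 0.102) and Kif23 (not passing without DM shRNA replicate 2 or GM shRNA replicate 3 or GM vector replicate 4, adjusted p = 0.0611 to 0.0643), and gained for Kif4 (passing without DM vector replicate 1, adjusted p = 0.0387), Smc4 (passing without DM vector replicate 1 or 2 or 3, adjusted p = 0.023 to 0.0488) and Ttk (passing without DM vector replicate 3, adjusted p = 0.0209). The fall of Smc4 in vector cells was lost (not passing without GM vector replicate 4, adjusted p = 0.0542), and that of Kif4 in shRNA cells was gained (passing without DM vector replicate 1 or 3, adjusted p = 0.00206 to 0.0455). Mean signals of the 12 members in GM with the vector lay between 45.4 (Ndc80) and 238 (Mki67). No member passed in shRNA cells and not in vector cells. Nusap1, which bundles spindle microtubules, was at 122, 80.6 and 94.9 in DM with the shRNA and 62.5, 27.9 and 43.0 in DM with the vector, against 88.6, 95.2 and 94.2 in GM with the shRNA and 102, 101 and 124 in GM with the vector. In shRNA cells the 2 media overlapped. The other tested MA probe set of Nusap1, which was dimmer, did not pass in vector cells (-0.17, adjusted p = 0.57) or for the interaction (0.18, adjusted p = 0.8). The same held for the other tested MA probe sets of Cenpf and Smc4, given above.

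The MB design, scaled and tested apart, had 18 tested members and a wider spread (median residual SD 0.523, against 0.214 for MA). Of these, 6 fell in DM in shRNA cells and 10 in vector cells, while 2.57% and 5.0% of all 19303 probe sets did. With the shRNA, 7 were higher in DM (0.782% of all probe sets) and none passed in GM (0.0673% lower and 0.207% higher), where 0 members passed in limma and 1 had an unadjusted p under 0.05, and the interaction was positive and passed in 5 (0.223%). Without DM shRNA replicate 1, 4 members were higher with the shRNA in DM. The interaction passed in 2 members without DM shRNA replicate 2 or 3 or GM shRNA replicate 2 or 3, and in 3 without GM vector replicate 1, 2 or 3. Without the trend in the variance, 1 MB member was higher with the shRNA in DM and 0 had an interaction that passed, and with only the compared arrays in the fit 3 were higher. The 4 members found on this design only were higher with the shRNA in DM. Cdca8, the borealin subunit of the passenger complex, had 2061, 2531 and 2323 in DM with the shRNA and 1004, 627 and 1061 in DM with the vector, against 6458, 5512 and 6245 in GM with the shRNA and 8337, 8574 and 8713 in GM with the vector. All 4 groups were apart, in the order of Plk1. Its change with the shRNA in DM was 1.38 ± 0.17 (adjusted p = 0.000385).

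Espl1, the separase that cuts cohesin, had 551, 680.3 and 663 in DM with the shRNA and 332, 315 and 302 in DM with the vector, against 1740, 1791 and 1683 in GM with the shRNA and 1838, 1963 and 2479 in GM with the vector. Here too all 4 groups were apart. It was higher with the shRNA in DM by 0.96 ± 0.16 (adjusted p = 0.00394). Spc24, of the Ndc80 complex, was at 759, 962 and 992 in DM with the shRNA and 394, 355 and 465 in DM with the vector, against 3814, 3019 and 3090 in GM with the shRNA and 3393, 4101 and 3393 in GM with the vector. Its DM groups did not overlap and its change was 1.13 ± 0.17 (adjusted p = 0.0014). Sgo2a (shugoshin 2), which guards centromeric cohesin in meiosis and is present in mitosis, was at 436, 343 and 264 in DM with the shRNA and 200.5, 39.9 and 19.9 in DM with the vector. The vector arrays differed widely among themselves; the change was 2.26 ± 0.45 (adjusted p = 0.0159) and the interaction of 2.70 ± 0.64 (adjusted p = 0.0885) did not pass.

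Cenpe, a kinetochore motor that failed the filter on the MA design, had 332, 254 and 320.5 in DM with the shRNA and 121, 30.9 and 115 in DM with the vector, against 393, 317 and 448 in GM with the shRNA and 605, 499 and 481 in GM with the vector. In DM all shRNA arrays lay above all vector arrays. Its change with the shRNA was 1.76 ± 0.33 (adjusted p = 0.00881). For 13 members tested on both designs, the log2 changes with the shRNA in DM had the same sign in 10, with Cenpf, Hmmr and Tpx2 opposite. The MB probe set of Cenpf, at 101, 11.5 and 26.4 in DM with the shRNA and 75.9, 48.1 and 16.9 in DM with the vector, was dim and scattered. For DM against GM the signs were the same in 12 of the 13 in shRNA cells (not Bub3) and in 12 in vector cells (not Cenpf).

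Members with several probe sets were checked one by one. On the MA design 21 members had more than 1 tested probe set. Their signs were the same in 16 for DM against GM in shRNA cells and in 21 in vector cells. With the shRNA they were the same in 19 in DM and in 13 in GM, and for the interaction in 20. No passing probe sets of 1 gene went in opposite directions, since member probe sets passed in only 1 direction in each comparison. On the MB design 7 members had several, and their signs were the same for 2 of the 7 with the shRNA in DM and for 2 in the interaction, again with none passing in opposite directions. With all 77 tested MA probe sets of members counted, 54 fell in DM in shRNA cells and 70 in vector cells, 58 were higher with the shRNA in DM, and the interaction was positive and passed in 53. The filter asked for a signal of 30 in 3 arrays. Of the 49 tested members, 47 reached that in DM arrays alone, and Cdc25c and Ndc80 passed it only with GM arrays. Among the 47, 43 were higher with the shRNA in DM and the interaction passed in 39. Without the filter, 34 of 50 members fell in shRNA cells and 48 in vector cells, 43 were higher with the shRNA in DM, and the interaction passed in 36.

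Other genes of the pathway, listed by role and not members, had smaller median changes. Of 96 listed, 68 were tested on the MA design. With the medium, 29 fell and 3 rose in shRNA cells (median -0.39), and 49 fell and 1 rose in vector cells (median -0.86). With the shRNA in DM, 22 were higher and 1 lower (median 0.36), and the interaction passed in 18, all positive. Over all probe sets, 17.5% fell and 16.3% rose in shRNA cells, and 25.4% fell and 23.9% rose in vector cells. With the shRNA in DM, 10.7% were higher and 6.24% lower, and 5.48% had a positive interaction that passed. Spindle and cytokinesis genes came nearest to the members, with 11 of 13 higher with the shRNA in DM (median 0.98), such as Cep55, which acts in the last cut of cytokinesis (1.42 ± 0.20, adjusted p = 0.000192), and Gtse1, a microtubule-binding protein (1.29 ± 0.16, adjusted p = 8.56e-05).

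Other centromere and kinetochore genes were higher with the shRNA in DM in 5 of 18 (median 0.44), where 10.7% of all probe sets were. Among the 5 were Mis18a, which helps to load Cenpa (1.17 ± 0.19, adjusted p = 0.000632), and Ska2, a microtubule-binding kinetochore subunit (0.93 ± 0.15, adjusted p = 0.000502). Of 12 genes of checkpoint and entry control, 4 were higher, including Sgo1, the mitotic guard of centromeric cohesin (2.01 ± 0.20, adjusted p = 8.41e-06), and Pbk, a mitotic kinase (1.25 ± 0.12, adjusted p = 6.92e-06). Mad1l1, the Mad1 protein that anchors Mad2, went the other way and was picked after its values were seen. It was at 328, 330.2 and 369.8 in DM with the shRNA and 467, 622 and 777 in DM with the vector, against 170.1, 172 and 133 in GM with the shRNA and 194, 254 and 168 in GM with the vector. It rose in DM in both constructs, by 1.05 ± 0.18 in shRNA cells and 1.52 ± 0.18 in vector cells, and with the shRNA in DM it changed by -0.81 ± 0.18 (adjusted p = 0.00626).

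The core of the anaphase promoting complex was described apart from the members that act on it. Of its 11 tested genes, 2 fell in DM in shRNA cells (Anapc2 and Anapc5, with log2 changes of -0.84 ± 0.11 and -0.48 ± 0.10) and 6 in vector cells (Anapc1, Anapc2, Anapc5, Anapc11, Cdc23 and Fzr1, between -1.001 and -0.46). Over all tested probe sets, 17.5% fell in shRNA cells and 25.4% in vector cells, so the count in shRNA cells was near the share of all. With the shRNA in DM only Fzr1, the activator used after mitosis, was higher (0.46 ± 0.13, adjusted p = 0.0254), while 10.7% of all probe sets were. In GM, Anapc13 was higher (0.51 ± 0.14) and Anapc5 lower (-0.39 ± 0.10), while 3.99% of all probe sets were higher and 2.57% lower. Of 7 cohesin genes, none passed in limma with the shRNA in DM (median 0.10), and 1 had an unadjusted p under 0.05. With the medium, Stag1 rose in shRNA cells (0.55 ± 0.19), while Smc1a (-0.66 ± 0.11) and Rad21 (-0.76 ± 0.26) fell in vector cells. These counts were near the shares of all probe sets, of which 16.3% rose in shRNA cells and 25.4% fell in vector cells. The cohesin ATPase Smc3 was lower with the shRNA in GM (-0.65 ± 0.18). The interaction was positive and passed in 2 of the 7 cohesin genes (median 0.24 over the 7, highest value 0.90 for Smc3). It was positive and passed in 1 of the 11 anaphase promoting complex genes (Anapc5, 0.52 ± 0.15). Over all probe sets, 5.48% had a positive interaction that passed. The 2 tested condensin II genes, Ncapg2 and Ncaph2, changed by 0.41 ± 0.18 (adjusted p = 0.149) and 0.09 ± 0.13 (adjusted p = 0.703) with the shRNA in DM.

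Among 5 tested regulators of mitotic genes, Rbl1, the p107 pocket protein, was higher with the shRNA in DM (0.83 ± 0.18, adjusted p = 0.00497), and Mybl2, the B-Myb factor that works with MuvB, changed by 0.35 ± 0.20 (adjusted p = 0.267). A DNA replication list (34 of 39 genes tested) gave 29 falls in shRNA cells (median -0.90) and 32 in vector cells (median -1.76). With the shRNA in DM 22 of its genes were higher and 1 lower (median 0.66), among them Tk1, the thymidine kinase of S phase (1.84 ± 0.15, adjusted p = 2.51e-06), and Pole, a replicative polymerase (1.61 ± 0.17, adjusted p = 1.66e-05). In GM 6 were lower and 1 higher with the shRNA, and the interaction passed in 21 (median 0.88). Over all probe sets, 17.5% fell in shRNA cells and 25.4% in vector cells. With the shRNA, 10.7% were higher and 6.24% lower in DM, and 2.57% were lower and 3.99% higher in GM. A positive interaction passed in 5.48%. No test compared the lists with each other.

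**Figure D4:**
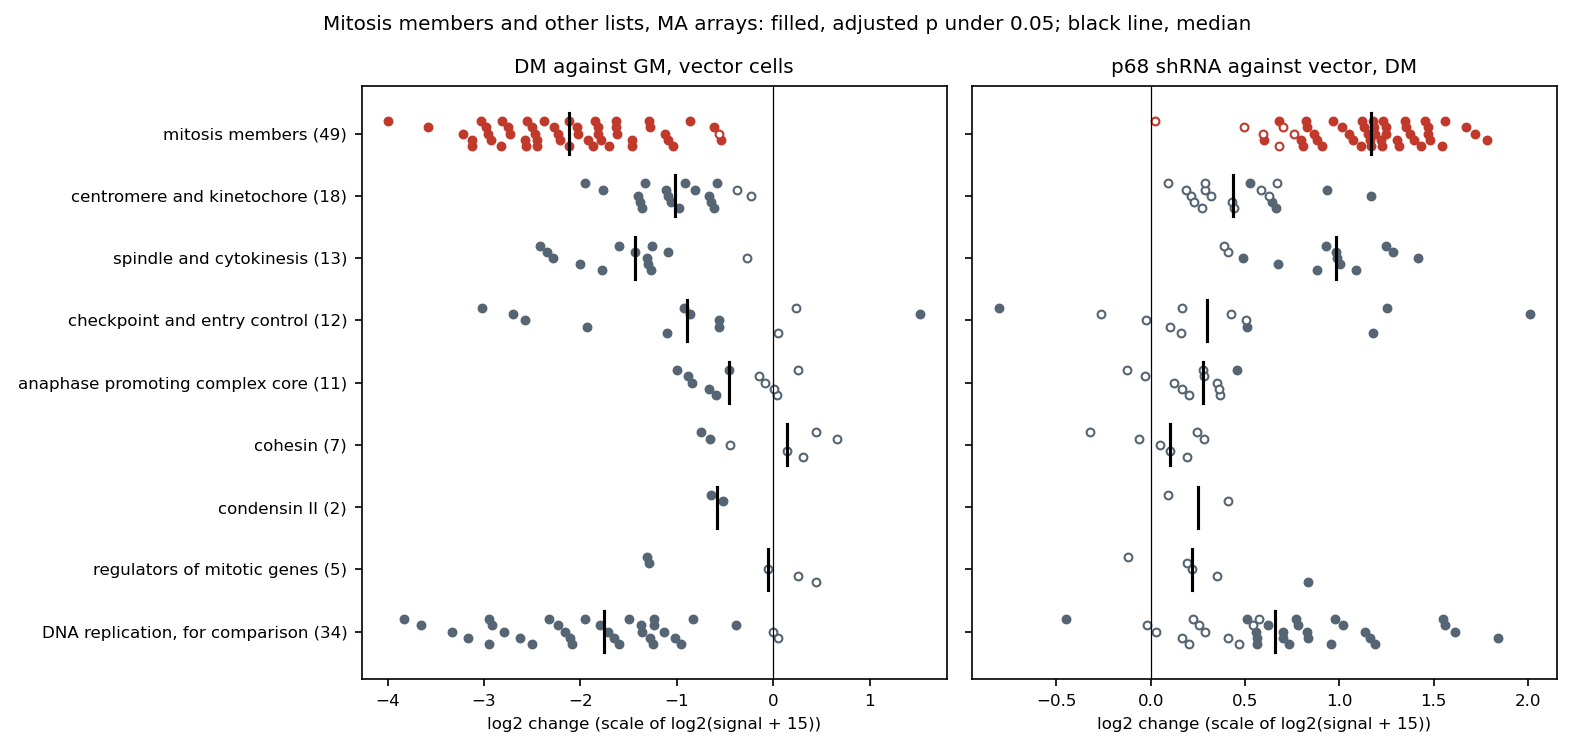
Log2 change of each tested gene on the MA arrays (points; filled, adjusted p under 0.05) with the median of each list (black line), for DM against GM in vector cells (left panel) and for p68 shRNA against vector in DM (right panel); numbers in brackets are genes tested. The members have medians of -2.12 and 1.17, spindle and cytokinesis genes -1.43 and 0.98, DNA replication -1.76 and 0.66, and cohesin 0.14 and 0.10.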

How the data were processed

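Total RNA of transduced C2C12 cells was labelled with biotin and hybridised to 2 array designs (MA and MB), 4 groups of 3 arrays on each. Groups and replicate numbers came from the titles. The labels do not call the replicates separate cultures, and p-values then measure only how far these arrays spread, which may be technical. Intensity values on a linear scale, 1 for each probe set of an array, were deposited by the authors and made with MAS5, per the submitters' processing notes; the sources used here name neither its version nor its settings. Judged by the values, each array had been scaled to the same mean (150.1 for MA and 150 for MB after 2% was taken off each end). Precision is limited by the number of arrays.

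Gene symbols came from the platform annotation, and only probe sets with 1 symbol were named; no coordinates but those of the RefSeq promoter windows were used. Signals were analysed as log2(signal + 15), which understates changes of dim genes. Probe sets that reached 30 in at least 3 of the 12 arrays were tested (14367 MA and 19303 MB). Each design was fitted with limma 3.58.1 under R 4.3.3, as means of the 4 groups over 12 arrays (8 residual degrees of freedom). The eBayes step used a trend in the variance, and p-values were adjusted after Benjamini-Hochberg over all tested probe sets, at 0.05. Each gene is given by its probe set with the highest mean over the 12 arrays. Values are log2 change ± standard error over 3 arrays per group, and "passed" means an adjusted p under 0.05. The exact permutation test was two-sided. The fit was tested on simulated data.

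The members and lists were chosen with earlier results of these data known. Members given in full were the 2 with the highest mean signal in each role and any that did not pass, or rose, in DM against GM in vector cells; other pathway genes named were up to 2 per role with the largest change with the shRNA in DM, and those of cohesin and the anaphase promoting complex that passed. Alternatives were other pseudocounts, other filters, no trend, quantile normalization, only the compared arrays in the fit, a replicate block, every probe set counted, each array left out, and, chosen after seeing the data, probe sets ending in _x_at or _s_at left out.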

Additional observations from a re-analysis of the deposited data

Results flagged for a closer look

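A difference between the constructs in the response to the medium, tested as the interaction of medium and shRNA in limma, passed for 39 members on the MA design and 5 on the MB design. Each value is the log2 change for DM against GM in p68 shRNA cells minus that in vector cells, over 3 arrays per group, and all were positive. Among Cdk1 and its regulators, the MA values were Cdc25b 1.18, Ccnb2 1.44, Cdk1 1.47, Ccna2 1.55, Cks2 1.65 and Cdca3 2.01. For the other mitotic kinases, the MA values were Aurka 1.11, Melk 1.51 and Plk1 1.68. In the chromosomal passenger complex, the MA values were Incenp 1.38, Birc5 1.65 and Aurkb 1.74. For the spindle checkpoint, the MA values were Mad2l1 1.06, Bub1 1.23 and Bub1b 1.99. For genes of anaphase and cohesion, the MA values were Cdca5 1.56, Pttg1 1.62, Cdc20 1.73 and Ube2c 1.87. At the centromere and kinetochore, the MA values were Nuf2 1.12, Cenpa 1.14, Cenpf 1.19 and Spc25 1.39. For spindle motors and microtubule proteins, the MA values were Kif22 0.80, Nusap1 1.16, Hmmr 1.22, Tpx2 1.22 and Kif2c 1.93. In cytokinesis, the MA values were Racgap1 0.89, Kif20a 1.31, Kif23 1.38, Ect2 1.44 and Anln 1.69. For condensin and chromosome structure, the MA values were Ncaph 0.84, Ncapd2 1.42, Top2a 1.73, Mki67 1.75 and Smc2 2.05. The MA value of the transcription factor Foxm1 was 0.99. On the MB arrays they were Espl1 1.22, Spc24 1.26, Cdca8 1.87, Cenpe 2.20 and Bub1b 3.14. The highest adjusted p among them was 0.0436 (Ect2) on the MA and 0.0467 (Cenpe) on the MB design. Another tested MA probe set did not pass for Aurkb, Cdca3, Cenpf, Hmmr, Incenp, Kif22, Kif2c, Nusap1 and Pttg1. On the MB design this held for Bub1b and Cdca8. When single arrays were left out, the MA interaction no longer passed for Ect2 in 9 of 12 runs, Spc25 in 8, Kif22 in 7, Ncaph and Nuf2 in 5 each, Kif23 in 3 and Mad2l1 in 1. The MB count was 0 without the trend in the variance and 2 to 6 with single arrays left out.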

How the results depend on the processing

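No member's change turned direction where it had passed, under any setting run. On the MA design, counts of members that passed stayed within 1.5 times the reported ones for DM against GM in both constructs, for shRNA against vector in DM and for the interaction. The exception was shRNA against vector in GM (2 members): 0 passed with no filter, without the trend, with a pseudocount of 5 and after quantile normalization, and 5 with only the compared arrays in the fit and with every probe set of a member counted. The median change of DM against GM in vector cells was -2.34 with a pseudocount of 5, and the median interaction was 1.096 with a pseudocount of 30; both follow from the log2(signal + pseudocount) scale. Leaving out 1 array at a time gave medians of -0.95 to -0.88 for DM against GM in shRNA cells, -2.24 to -2.07 in vector cells, 1.096 to 1.217 for the shRNA in DM, -0.24 to -0.18 for the shRNA in GM and 1.21 to 1.41 for the interaction. The MA counts then were 31 to 37, 47 to 49, 40 to 47, 0 to 5 and 33 to 41 members, in that order of comparisons. The MB counts were 6 in every run, 8 to 10, 4 to 7, 0 in every run and 2 to 6. The MB count for the shRNA in DM was 1 without the trend and 3 with only the compared arrays, and the MB interaction passed in 0 members without the trend; the cause was not tested. With probe sets ending in _x_at or _s_at left out, 3 MB members fell in shRNA cells and 3 had an interaction that passed. With only 100 bases before the start searched, a CHR stood in 24.0% of the members' windows, 5.7% of the replication windows and 6.1% of all, and CCAAT in 64.0%, 48.6% and 18.9%. Deviations from group means of same-numbered arrays correlated at -0.139 to 0.293 on the MA design (above 0 in 7 of 9 pairs) and at -0.0391 to 0.0284 on the MB design. No comparison with 3 pairs had all of them over 0.1. Other MA comparisons had fewer pairs. DM against GM in vector cells had 0.166 and 0.293, both over 0.1. Pairs of shRNA against vector in GM had 0.143 and 0.0926, and those of DM against GM in shRNA cells -0.0473 and 0.0625. The labels do not say what a number shares, so the numbers were not taken as pairs. With the replicate number as a block, 36 members fell in shRNA cells and 47 in vector cells, 43 were higher with the shRNA in DM, 2 were lower in GM and 40 had an interaction that passed (MA), with medians of -0.92, -2.11, 1.17, -0.19 and 1.31 (MB counts with the block: 6, 10, 7, 0 and 6). Quantile normalization moved the median of all MA probe sets by at most 0.049 in size. Signals under 30 in DM with the vector (11 members) limit how far a fall can be measured there.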
